A study of Mus musculus with 17 samples.

Results

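The 9 genes described here encode the chains that carry peptides to the cell surface for T cells and the proteins that load them. They are B2m, H2-D1, H2-K1 and H2-T23 of MHC class I, Tap1, Tap2 and Tapbp of class I peptide loading, and Cd74 and H2-Aa of MHC class II. They were taken by symbol from a table of 56953 genes, each symbol was found in 1 row, and all 9 were among the 23062 genes with enough counts to be tested. The table holds bulk RNA sequencing of the prefrontal cortex of 17 mice aged 8 months on a B6C3F1/J background. Of these, 5 were wild type (WT, no tau transgene), 6 were PS19 (labelled hTau, carrying human P301S tau under the mouse Prnp promoter) and 6 were CgA-KO/PS19 (labelled CgA-KO_hTau, carrying the same transgene and lacking chromogranin A throughout the body from conception). Chromogranin A knockout mice without the transgene were not among the libraries, so the effect of the knockout was measured only on the tau background. Both sexes were used, and the sex of each library is not in the labels. Libraries of a genotype were taken as separate mice.

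Class I molecules are made by nearly all nucleated cells. A heavy chain (H2-D1 and H2-K1 are the classical ones of the mouse, H2-T23 encodes the nonclassical Qa-1) folds with beta-2 microglobulin, the product of B2m, while tapasin (Tapbp) holds it near the TAP1/TAP2 transporter that pumps peptides into the endoplasmic reticulum. Class II molecules are made mainly by professional antigen-presenting cells, where the invariant chain Cd74 accompanies the alpha and beta chains, of which H2-Aa encodes one. In the brain, neurons express little class I and parenchymal microglia little class II at rest, interferons raise both, and class II is found in macrophages and dendritic cells at the borders of the brain.

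The total count per library ran from 8838334 to 227651681, and WT replicate 4 was the shallowest. Chga had 0 counts in the 6 CgA-KO/PS19 libraries and 152 to 180 CPM (counts per 1000000 counts of the library) in the others. Prnp, whose promoter drives the transgene, stood at 748 to 914 CPM in WT mice, at 1974 to 2368 with the transgene and at 1236 to 2078 in the knockout with the transgene. Summed CPM of 18 striatal markers was 1167 to 3512 in the WT libraries, 168 to 225 in those of PS19 and 205 to 2135 in those of CgA-KO/PS19, and mitochondrial transcripts took 3.53 to 7.94%, 2.56 to 4.59% and 3.84 to 18.2% of counts in the same order. Some libraries were unusually alike, namely replicates 4, 5 and 6 of PS19 and, in the knockout, replicates 1 and 3. The robust SD of the log2 count ratios between them was 0.08 to 0.13, against at least 0.19 for any other pair within a genotype. They still differed beyond sampling noise, with a chi-square per gene of at least 20.4. With each of these sets summed to 1 library, 0 of the 9 genes were called in any comparison. That fit called few genes at all, namely 1.92% of all genes for PS19 against WT, 0.710% for CgA-KO/PS19 against PS19 and 2.55% for CgA-KO/PS19 against WT.

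In the GRCm38 build (GENCODE M21), 7 of the 9 genes lie in the H-2 complex and its flank on chromosome 17, and B2m and Cd74 lie elsewhere. H2-K1 spans 33996017 to 34000347, Tap1 34187553 to 34197225, Tap2 34203527 to 34216321, H2-Aa 34282744 to 34287823, H2-D1 35262730 to 35267499, H2-T23 36029773 to 36032855, and Tapbp 33915899 to 33929292 just outside H2-K1. B2m lies on chromosome 2 (122147686 to 122153083). The values below count reads over all exons of each gene. Mice of this background can carry the b haplotype of H-2 from C57BL/6, the k haplotype from C3H, or both, the reads were aligned to the C57BL/6J genome, and the part of haplotype in any difference was not tested.

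Promoter sequences from RefSeq (GRCm38.p6) were at hand for 7 of the 9 genes. The set of promoters used here had no entry for Tap2 and Cd74. The sequences below are shown because H2-D1 and H2-K1 hold upstream matches to the same short motifs but did not vary together in these libraries. Capitals mark matches, on either strand, to an interferon-stimulated response core (GAAANNGAA), a kappa B element (GGGGATTCC), a CCAAT box (CCAAT) and the core TGACG of the X2 box. B2m is shown from chr2:122147437-122147685 (plus strand), H2-K1 from chr17:34000348-34000597 (minus strand), H2-D1 from chr17:35262913-35262942 (plus strand), H2-T23 from chr17:36032805-36032834 (minus strand) and H2-Aa from chr17:34287824-34288073 (minus strand). H2-D1 and H2-T23 are limited to 30 bases around 1 match because their upstream stretches overlap annotated exons. These 30 bases lie within the gene spans given above, so they are upstream of the RefSeq start used but not of every annotated start.
B2m: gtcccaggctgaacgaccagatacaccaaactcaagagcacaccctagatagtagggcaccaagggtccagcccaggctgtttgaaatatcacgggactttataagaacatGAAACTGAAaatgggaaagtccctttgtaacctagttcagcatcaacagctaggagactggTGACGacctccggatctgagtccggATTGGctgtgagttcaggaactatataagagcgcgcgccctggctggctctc
H2-K1: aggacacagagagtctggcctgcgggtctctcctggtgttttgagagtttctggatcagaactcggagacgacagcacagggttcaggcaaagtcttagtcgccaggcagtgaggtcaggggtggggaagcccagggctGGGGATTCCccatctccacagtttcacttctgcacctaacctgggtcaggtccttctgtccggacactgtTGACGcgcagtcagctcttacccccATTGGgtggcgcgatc
H2-D1: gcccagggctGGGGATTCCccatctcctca
H2-T23: tcctactgctTTCTCTTTCataaagacaca
H2-Aa: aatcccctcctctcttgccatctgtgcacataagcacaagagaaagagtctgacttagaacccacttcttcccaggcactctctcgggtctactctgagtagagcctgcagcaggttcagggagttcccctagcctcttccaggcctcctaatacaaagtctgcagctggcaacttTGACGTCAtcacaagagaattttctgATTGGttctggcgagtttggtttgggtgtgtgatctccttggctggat

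The kappa B letters were found 250 bases or less upstream of only H2-D1 and H2-K1 among the 7 genes, and in 0.213% of the 32851 promoters of the table. From that match on, H2-D1 and H2-K1 had the same base at 89 of 100 positions, which include the match itself, identical in both by definition. The interferon-stimulated core was found for B2m and H2-T23 (7.13% of all promoters), TGACG for 5 of 7 genes (17.8%) and CCAAT for all 7 (33.8%). In H2-Aa the TGACG matches of both strands overlap. The interferon gamma-activated letters TTCNNNGAA (7.02%) were found for none of the 7. These are matches of letters, not measured binding sites. Only the letters given were searched, and other spacings or spellings of the same elements were not. A gene without a match can therefore still hold such an element. This applies to H2-D1 and H2-K1 for the interferon-stimulated core and to B2m for kappa B.

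On a scale per length (RPKM, the CPM per kilobase of exon), the levels kept the same order in WT and PS19. In PS19 the means were 100 for B2m, 13.1 for H2-D1, 4.6 for H2-T23, 3.17 for H2-K1, 2.52 for Tapbp, 1.9 for Tap2, 1.66 for Cd74, 0.274 for Tap1 and 0.239 for H2-Aa. In PS19 the libraries of B2m and H2-D1 and those of H2-D1 and H2-T23 did not overlap, nor did those of Cd74 and Tap1, while those of Tapbp (lowest 2.21) and Tap2 (highest 2.2) all but touched. Those of H2-T23 and H2-K1, H2-K1 and Tapbp, Tap2 and Cd74, and Tap1 and H2-Aa did overlap. In CgA-KO/PS19, H2-K1 (3.85 ± 0.577 RPKM, SD, n = 6) stood above H2-T23 (2.87 ± 0.713), the reverse of WT (2.84 ± 0.716 and 3.29 ± 1.27, n = 5). The light chain B2m stood above every heavy chain in each library, and the transporter subunit Tap2 above Tap1.

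**Figure D1:**
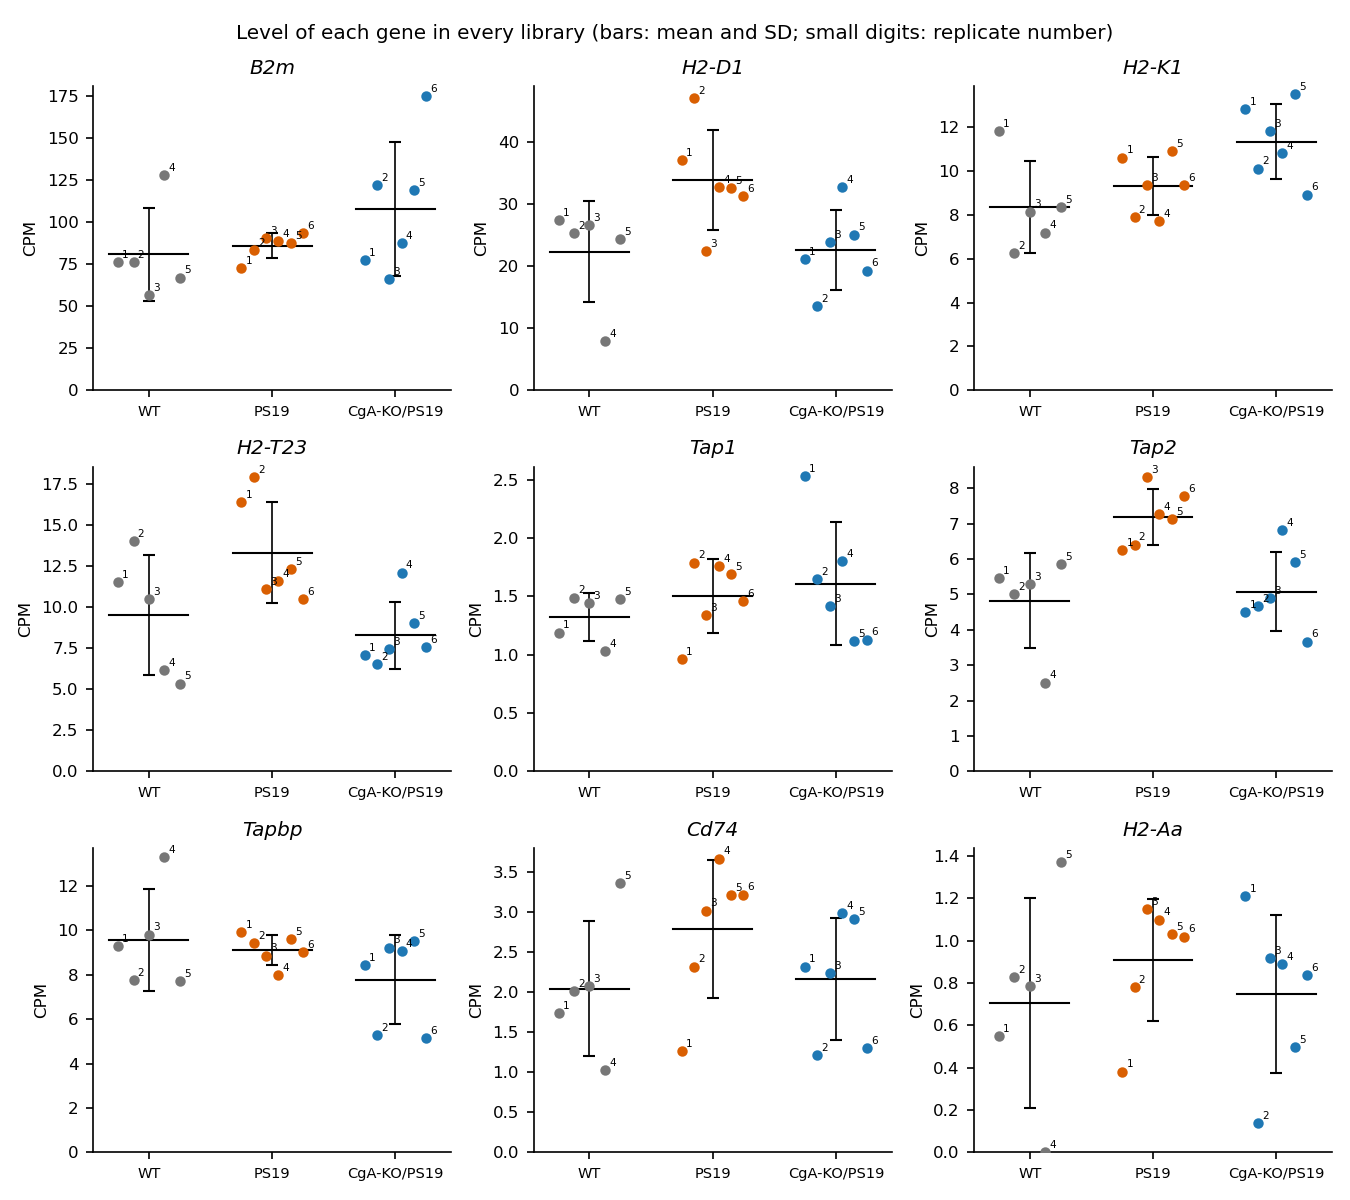
Level of each of the 9 genes in the 17 libraries, in CPM, with 1 point per library numbered by replicate, and the mean and SD per genotype as black bars. For Tap2 the 6 PS19 libraries (6.25 to 8.31 CPM) lie above the 5 WT libraries (2.51 to 5.86 CPM), while for the other 8 genes the libraries of PS19 and WT overlap, and WT replicate 4 is the lowest or highest WT library for 7 of the 9 genes.

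The first question was whether these genes differed between PS19 and WT. Summed striatal markers do not overlap between these 2 genotypes, so tissue and mutant tau cannot be told apart in any of these differences. None of the 9 passed a false discovery rate (FDR) of 0.05 between PS19 and WT in edgeR's quasi-likelihood test, where 5.90% of all 23062 genes did. At an unadjusted p under 0.05 there were 2 genes, H2-D1 and Tap2, and 20.9% of all genes. The fitted difference was positive for 8 genes and negative for 1, with a median log2 fold change of 0.24 against 0.01 over all genes. DESeq2 and limma voom with sample quality weights, which count outlying libraries less, each called 1 gene, Tap2, where they called 9.81 and 17.2% of all genes they tested. With the striatal markers as a covariate, the log2 fold change was 0.6 for H2-D1 (FDR = 0.359), 0.11 for H2-T23 (FDR = 0.872) and 0.52 for Tap2 (FDR = 0.253). That edgeR fit called 17.6% of all genes. In these bulk samples, fewer cells of a type and less RNA per cell cannot be told apart.

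The second question was whether loss of chromogranin A changed them in tau mice. Again 0 of 9 passed an FDR of 0.05 between CgA-KO/PS19 and PS19, where 9.72% of all genes did. At an unadjusted p under 0.05 there were 3, H2-D1, H2-T23 and Tap2, each lower in CgA-KO/PS19, against 27.8% of all genes. The difference was positive for 3 genes and negative for 6, with a median of -0.28 against 0.03 over all genes. This count depended on WT replicate 4, which is in neither genotype but adds to the shared estimate of spread. Without it all 3 genes passed, as did 15.0% of all genes. DESeq2 called 2 genes (H2-T23 and Tap2) and 15.2% of all genes. The weighted limma voom fit called 2 (H2-D1 and Tap2), a share of 9 genes close to the 22.7% it called of all genes.

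Between CgA-KO/PS19 and WT, 0 of 9 passed, where 6.46% of all genes did. At an unadjusted p under 0.05 there was only H2-K1, against 21.7% of all genes. DESeq2 and the weighted limma voom fit also called 0 of the 9, and 9.87 and 10.7% of all genes. The libraries of PS19 and WT did not overlap for 1 of the 9 genes (9.52% of all genes), those of CgA-KO/PS19 and PS19 for 0 (6.63%), and those of CgA-KO/PS19 and WT for 0 (3.60%). The first and second comparisons share the PS19 libraries, so a gene that was high in these libraries differs in opposite directions in them.

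**Figure D2:**
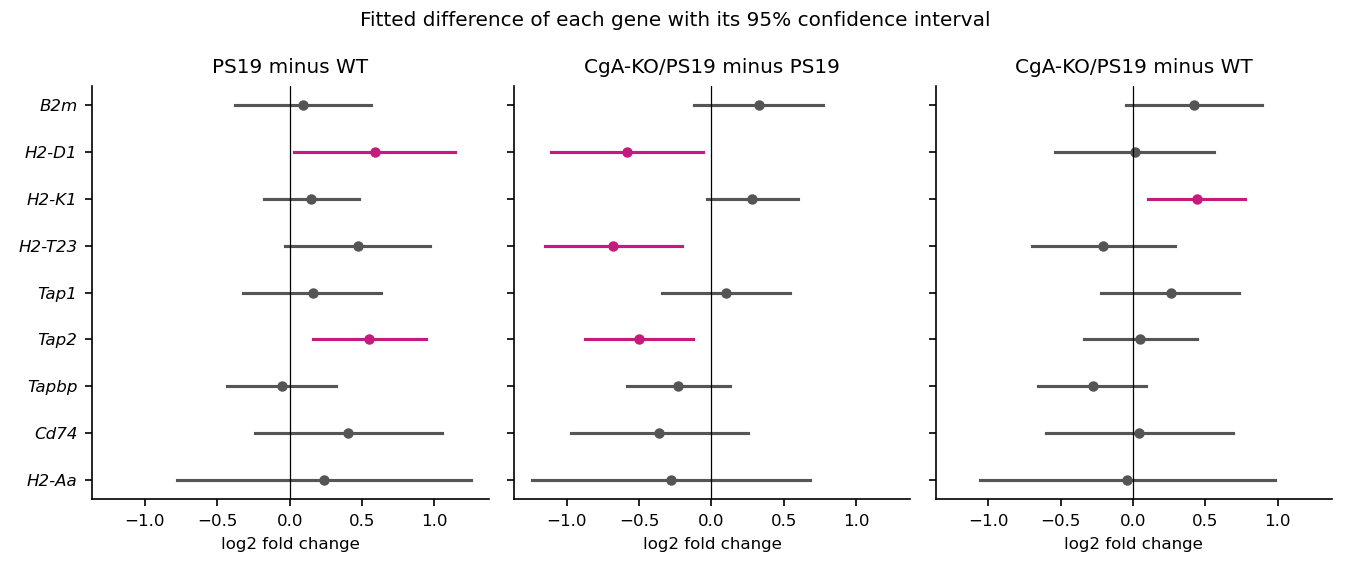
Fitted log2 fold change of each gene (point) with its 95% confidence interval (line) in the 3 comparisons, in color where the unadjusted p was under 0.05. Intervals that leave out 0 are those of H2-D1 and Tap2 for PS19 minus WT, of H2-D1, H2-T23 and Tap2 for CgA-KO/PS19 minus PS19, and of H2-K1 for CgA-KO/PS19 minus WT, and none of these passed an FDR of 0.05.

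Among the heavy chains, H2-D1 had the highest level. Its 5 WT libraries held 27.5, 25.4, 26.6, 7.98 and 24.4 CPM, the PS19 libraries 22.5 to 47.1 with a median of 32.7, and the CgA-KO/PS19 libraries 13.6 to 32.8 with a median of 22.6. The PS19 libraries were the highest as a group, but PS19 replicate 3 lay below 4 of the 5 WT libraries. The WT mean was 22.4 ± 8.13 CPM (SD, n = 5), the PS19 mean 33.9 ± 8.06 (n = 6) and the CgA-KO/PS19 mean 22.6 ± 6.4 (n = 6). The log2 fold change was 0.59 for PS19 minus WT (95% interval 0.03 to 1.14, FDR = 0.209 by edgeR) and -0.58 for CgA-KO/PS19 minus PS19 (-1.11 to -0.06, FDR = 0.139 by edgeR). CgA-KO/PS19 minus WT was 0.01 (-0.54 to 0.56), so a change of more than about 1.5-fold either way lay outside the interval. Without WT replicate 4 the WT mean was 26 ± 1.36 CPM (n = 4). In that fit the fall from PS19 to CgA-KO/PS19 reached FDR = 0.0403 by edgeR at a log2 fold change of -0.58, where 15.0% of all genes passed. The same fit lowered PS19 minus WT to 0.39 (FDR = 0.322 by edgeR), with an unadjusted p of 0.0761. With a replicate block the fall from PS19 to CgA-KO/PS19 had FDR = 0.26 and with the near-identical libraries summed FDR = 0.327 by edgeR. It passed in 4 of all 33 alternatives.

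H2-T23, the gene of the Qa-1 chain that engages inhibitory receptors of natural killer and T cells, was also highest in PS19 as a group, but with CgA-KO/PS19 rather than WT at the lowest mean. WT libraries held 11.5, 14, 10.5, 6.16 and 5.35 CPM, PS19 libraries 10.5 to 17.9 (median 11.9) and CgA-KO/PS19 libraries 6.53 to 12.1 (median 7.52). All but 1 CgA-KO/PS19 library, replicate 4, lay below every PS19 library, while WT spread over both. CgA-KO/PS19 minus PS19 was -0.68 (95% interval -1.15 to -0.20, FDR = 0.0627 by edgeR), the smallest FDR among the 9 genes in that comparison. PS19 minus WT was 0.47 (-0.03 to 0.97, FDR = 0.27 by edgeR) and CgA-KO/PS19 minus WT was -0.21 (-0.70 to 0.29, FDR = 0.67 by edgeR). Without WT replicate 4 the fall from PS19 passed (FDR = 0.0422 by edgeR), as it did without WT replicate 5 (FDR = 0.0425, where 9.36% of all genes passed) and without CgA-KO/PS19 replicate 4 (log2 fold change -0.81, FDR = 0.022, where 17.3% passed). With a replicate block it had FDR = 0.139 and with the near-identical libraries summed FDR = 0.191 by edgeR.

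H2-T23 was also read apart in libraries with and without the male transcript Ddx3y, which exceeded 1 CPM in replicates 1, 2 and 3 of every genotype and not in the others. With Ddx3y-positive libraries alone, CgA-KO/PS19 minus PS19 was -1.09 (FDR = 0.0034 by edgeR), in a fit that called 31.1% of all genes, and CgA-KO/PS19 minus WT was -0.76 (FDR = 0.0209), where 20.7% were called. In the libraries without Ddx3y, PS19 minus WT was 1.03 (FDR = 0.0417 by edgeR, 5.81% of all genes called), CgA-KO/PS19 minus PS19 -0.27 and CgA-KO/PS19 minus WT 0.76. These fits without Ddx3y rest on the 3 near-identical PS19 libraries and on WT replicates 4 and 5 alone, so the spread behind their FDR may be too small. With Ddx3y as a covariate over all libraries, PS19 minus WT was 0.51 and CgA-KO/PS19 minus PS19 -0.63, and a difference between the 2 sets of libraries was not tested. CgA-KO/PS19 replicates 1 to 3 also hold the highest striatal and mitochondrial values of that genotype, so sex and these properties cannot be told apart there.

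H2-K1 did not share the order of H2-D1. Its WT libraries held 11.8, 6.26, 8.14, 7.19 and 8.35 CPM, PS19 libraries 7.72 to 10.9 (median 9.36) and CgA-KO/PS19 libraries 8.92 to 13.5 (median 11.3). The CgA-KO/PS19 libraries were highest as a group, but WT replicate 1, at 11.8 CPM, lay within their range. CgA-KO/PS19 minus WT was 0.44 (95% interval 0.10 to 0.77, FDR = 0.11 by edgeR), PS19 minus WT 0.15 (-0.18 to 0.48) and CgA-KO/PS19 minus PS19 0.28 (-0.03 to 0.60, FDR = 0.224 by edgeR). Without WT replicate 1 the first of these reached 0.59 (FDR = 0.0284 by edgeR, where 5.03% of all genes passed). Across the 17 libraries, log2(CPM + 1) of H2-K1 and H2-D1 had a Pearson r of 0.13, against 0.76 for H2-D1 and H2-T23. By r with H2-D1, H2-T23 ranked only 1240 of 15473 genes, and their r was 0.66 with genotype means taken out.

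B2m, the shared light chain, stood apart from the heavy chains. WT libraries held 76.5, 76.5, 56.7, 128 and 67.1 CPM, PS19 libraries 72.8 to 93.6 (median 88.1) and CgA-KO/PS19 libraries 66 to 175 (median 103). The PS19 libraries were close together, and the highest values were those of CgA-KO/PS19 replicate 6, WT replicate 4, and CgA-KO/PS19 replicates 2 and 5. The log2 fold change was 0.09 for PS19 minus WT (95% interval -0.38 to 0.56, FDR = 0.858 by edgeR), 0.33 for CgA-KO/PS19 minus PS19 (-0.12 to 0.77, FDR = 0.332) and 0.42 for CgA-KO/PS19 minus WT (-0.05 to 0.89, FDR = 0.295). The 4 highest libraries had 10.9, 7.94, 18.2 and 6.63% mitochondrial counts. CgA-KO/PS19 replicates 1 and 3, a near-identical pair with 15.3 and 13.8%, held 77.4 and 66 CPM of B2m. A relation of B2m to the mitochondrial share was not tested. With the striatal markers as a covariate, PS19 minus WT turned to -0.72 (FDR = 0.0472 by edgeR, 17.6% of all genes called). CgA-KO/PS19 minus PS19 became 0.68 (FDR = 0.0303 by edgeR, 6.32% called). Summed striatal markers do not overlap between PS19 and WT, so tissue and genotype cannot be told apart in the first. For the second, only CgA-KO/PS19 replicates 1, 2 and 3 held high sums (2119, 461 and 2135 CPM, against 168 to 225 in PS19). These replicates also had Ddx3y and the highest mitochondrial shares of that genotype, so these properties cannot be told apart there.

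**Figure D3:**
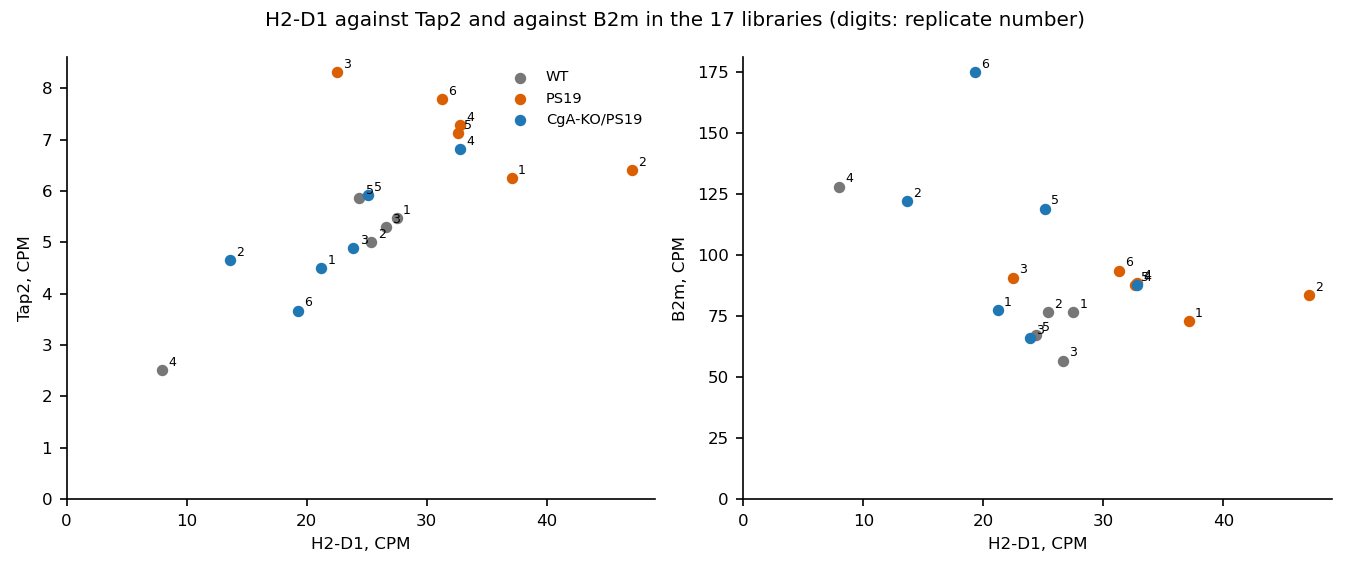
CPM of H2-D1 (x axis) against Tap2 (left) and B2m (right), 1 point per library numbered by replicate and colored by genotype. H2-D1 and Tap2 varied together over most libraries (r of log2 values 0.78, and 0.66 with genotype means taken out), though PS19 replicate 3, low in H2-D1 at 22.5 CPM, was the highest in Tap2 at 8.31 CPM. By r with H2-D1, Tap2 ranked only 1041 of 15473 genes. WT replicate 4 and CgA-KO/PS19 replicates 2 and 6, the 3 lowest in H2-D1, were among the 4 highest in B2m (r -0.50).

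Of the loading genes, Tap2 showed the clearest separation. WT libraries held 5.47, 5, 5.3, 2.51 and 5.86 CPM, PS19 libraries 6.25 to 8.31 (median 7.21) and CgA-KO/PS19 libraries 3.67 to 6.81 (median 4.78). Every PS19 library lay above every WT library, and 5 of the 6 CgA-KO/PS19 libraries lay below every PS19 library, replicate 4 being the exception. PS19 minus WT was 0.55 (95% interval 0.16 to 0.94, FDR = 0.092 by edgeR), a fitted difference of 1.46-fold. The mean was 7.19 ± 0.789 CPM in PS19 and 4.83 ± 1.33 CPM in WT. CgA-KO/PS19 minus PS19 was -0.50 (-0.87 to -0.13, FDR = 0.0749 by edgeR), and CgA-KO/PS19 minus WT 0.05 (-0.34 to 0.44). Tap2 passed for PS19 minus WT with DESeq2 (FDR = 0.0277) and weighted limma voom (FDR = 0.00773). Without WT replicate 4 that difference was 0.41 (FDR = 0.13 by edgeR), with a replicate block it had FDR = 0.174 and with the near-identical libraries summed FDR = 0.259. For CgA-KO/PS19 minus PS19 it passed with both (DESeq2 FDR = 0.0239, weighted limma voom FDR = 0.00773) and in edgeR without WT replicate 4 (FDR = 0.0209) or without CgA-KO/PS19 replicate 4 (FDR = 0.0286), but not with the block (FDR = 0.15 by edgeR) or the summed libraries (log2 fold change -0.45, FDR = 0.296). Of its 100-base windows, 4.99% were shared with the overlapping genes Gm15821 and Gm20496, and whether the counting used strand is not given in the sources used here.

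Tap1, the partner of Tap2 in the transporter, was expressed at about 1 to 2 CPM. WT libraries held 1.19, 1.49, 1.44, 1.03 and 1.48 CPM, PS19 libraries 0.965 to 1.79 (median 1.58) and CgA-KO/PS19 libraries 1.12 to 2.53 (median 1.53), so all 3 genotypes overlapped. The log2 fold changes were 0.16 (95% interval -0.32 to 0.63), 0.10 (-0.34 to 0.54) and 0.26 (-0.22 to 0.73) in the 3 comparisons in the order above. Tapbp, which encodes tapasin, held 9.29, 7.75, 9.81, 13.3 and 7.71 CPM in WT, 8 to 9.91 in PS19 (median 9.22) and 5.14 to 9.53 in CgA-KO/PS19 (median 8.75). CgA-KO/PS19 replicates 2 and 6 were the lowest, at 5.3 and 5.14 CPM, and the other 4 were within the range of the rest. Its log2 fold changes were -0.05 (-0.43 to 0.32), -0.23 (-0.58 to 0.13) and -0.28 (-0.66 to 0.09). Tapbp shared 14.8% of its windows with overlapping gene models, so its values carry the most uncertainty of this kind.

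The class II genes were low and varied strongly within each genotype. Cd74 lies on chromosome 18 (60803848 to 60812652). Cd74 held 1.74, 2.01, 2.08, 1.03 and 3.36 CPM in WT, 1.27 to 3.67 in PS19 (median 3.12) and 1.22 to 2.99 in CgA-KO/PS19 (median 2.28). H2-Aa held 0.55, 0.83, 0.786, 0 and 1.37 CPM in WT, 0.382 to 1.15 in PS19 (median 1.02) and 0.139 to 1.21 in CgA-KO/PS19 (median 0.863). The 0 in WT replicate 4 allows up to 1.03 CPM at its depth (3 fragments, or 9 deposited counts, counting error only). The lowest libraries for both genes were WT replicate 4, PS19 replicate 1 and CgA-KO/PS19 replicate 2. For Cd74 the log2 fold changes were 0.40 (95% interval -0.24 to 1.05), -0.36 (-0.97 to 0.25) and 0.04 (-0.60 to 0.69), and for H2-Aa 0.24 (-0.78 to 1.25), -0.28 (-1.24 to 0.68) and -0.04 (-1.06 to 0.98). The intervals of H2-Aa, and that of Cd74 for PS19 minus WT, reach 2-fold, so a difference of that size lay within them.

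The likeness of the class II genes to other genes was read over the 17 libraries, which share their tissue and dissection. In log2(CPM + 1), the genes closest to Cd74 were Slc6a13, a transporter of leptomeningeal cells (r = 0.92), the laminin gene Lama1 (0.91) and Slc47a1 (0.87), and those closest to H2-Aa were D7Bwg0826e (0.88), Lama1 (0.87) and Bmp6 (0.85). Taking out the genotype means left r at 0.92, 0.89, 0.86, 0.88, 0.88 and 0.86. Against the mean of 11 border macrophage markers, r was 0.77 for Cd74 and 0.72 for H2-Aa. It was 0.68 and 0.56 against 8 dendritic cell markers, 0.69 and 0.54 against 8 meningeal fibroblast markers, and 0.31 and 0.24 against 20 microglial markers. Summed border macrophage markers ran from 6.39 to 18.8 CPM over the WT libraries, 9.74 to 25 over those of PS19 and 12.4 to 22.5 over those of CgA-KO/PS19, with 2 of the 12 listed genes under 0.1 CPM on average, and meningeal markers (8 of 8 detected) from 18.7 to 152, 39.5 to 123 and 51.9 to 98.2. The dendritic cell sum was 224 to 446, 330 to 490 and 276 to 729 CPM in the same order, of which Cst3, expressed by many brain cells, gave 212 to 425, 306 to 466 and 255 to 712, and 2 of its 10 genes were under 0.1 CPM. The part of these cell types in the class II values was not tested.

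**Figure D4:**
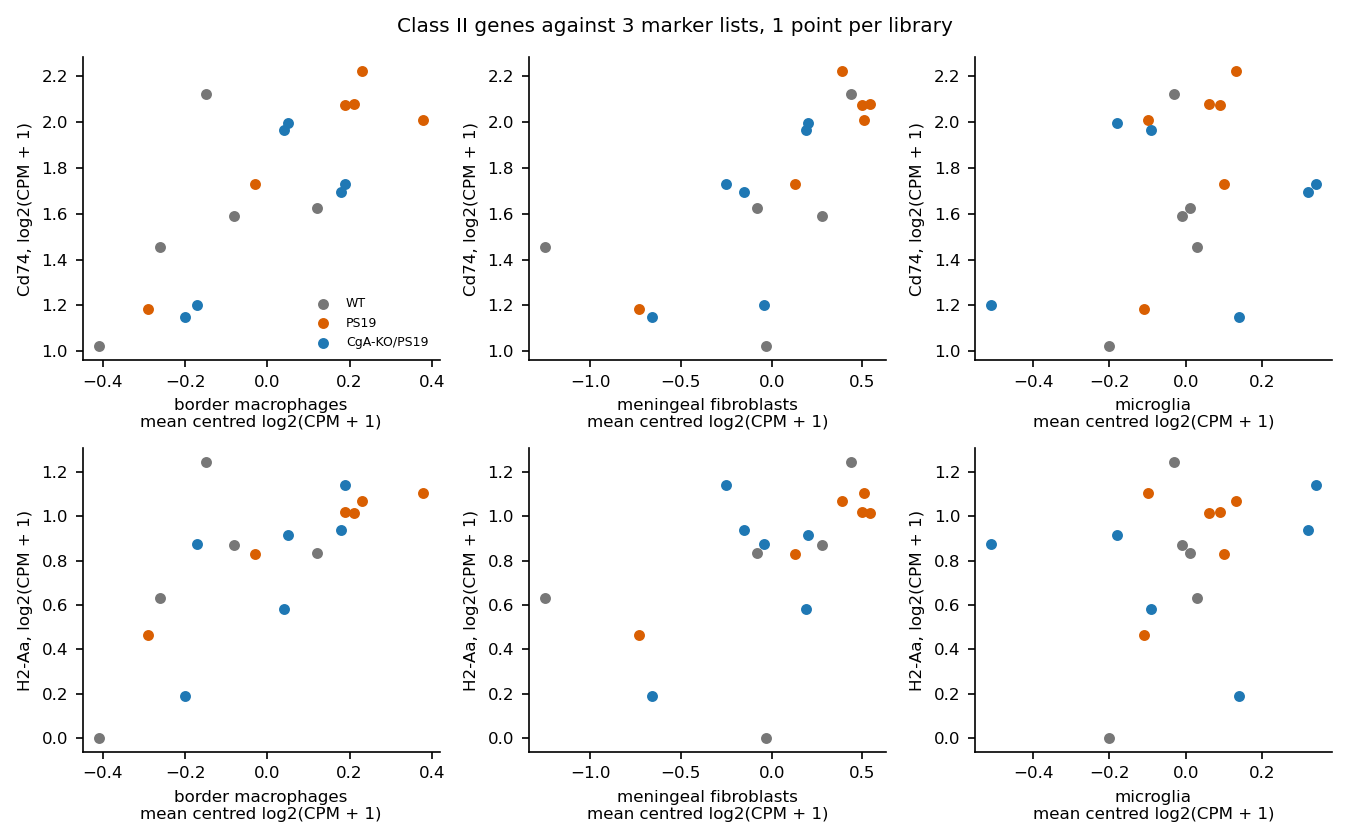
Level of Cd74 (top) and H2-Aa (bottom), as log2(CPM + 1), against the mean centred log2(CPM + 1) of border macrophage, meningeal fibroblast and microglial markers, with 1 point per library colored by genotype. Cd74 increases along the border macrophage axis (r = 0.77) and less along the microglial axis (r = 0.31), and the 3 genotypes overlap in every panel.

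The 3 closest genes of each class I gene were others. H2-D1 was closest to Grwd1 (0.96), Uap1l1 and Stradb (both 0.95), H2-T23 to Gm16098 and Tmem74b (both 0.90) and H1f0 (0.89), and Tap2 to Sesn2 and Tkt (both 0.95) and Tmem106c (0.94). B2m was closest to R3hdm2 (0.94), Hook3 (0.92) and Gm42433 (0.91), and Tapbp to Prrc2b (0.84), Tmem169 and Carns1 (both 0.81). Likeness was weaker for Tap1 (Gstt3 0.80, Uba7 0.79, Rpl10a 0.78) and weakest for H2-K1 (Ercc2 and Tacc3 0.75, Ppp1r3e 0.73). Against the 20 microglial markers r was 0.63 for Tap1, 0.23 for Tap2, 0.20 for H2-D1, 0.26 for H2-K1, -0.01 for H2-T23 and -0.59 for B2m. Against the 11 border macrophage markers r was 0.65 for Tap2, 0.52 for Tap1 and 0.40 for H2-D1. For H2-K1, H2-T23, Tapbp and B2m it was 0.20, 0.16, 0.02 and -0.28. Against the 8 dendritic cell markers the values in this order were 0.74, 0.52, 0.65, 0.22, 0.38, -0.28 and -0.16. Tap2 and Cd74 had an r of 0.77, and of 0.75 with genotype means taken out. Summed microglial markers were 364 to 421 CPM in the WT libraries, 363 to 433 in those of PS19 and 259 to 471 in those of CgA-KO/PS19, with all 20 detected. Of 10 T and NK cell markers 7 were under 0.1 CPM on average, as were 3 of 8 B cell markers. Each sum came mainly from 1 gene. For T and NK cells, WT libraries summed to 10.8 to 39.5 CPM, PS19 libraries to 1.85 to 2.24 and CgA-KO/PS19 libraries to 2.71 to 26.4, with Cd4 at 10.5 to 37.2, 0.562 to 1.04 and 1.32 to 24.8. The B cell sum was 5.58 to 23.2, 12.8 to 49.6 and 30.8 to 38.6, with Ighm, the IgM heavy chain, at 4.86 to 22.5, 11.5 to 48.7 and 29.4 to 37.8, so the libraries of WT and CgA-KO/PS19 did not overlap. Their part in the values of the 9 genes was not tested.

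The rest of the pathway was taken from 9 hand-written lists with the 9 genes left out. Of 87 listed genes 68 were tested. In PS19 against WT, 2 were called higher and 2 lower, in CgA-KO/PS19 against PS19 1 and 2, and in CgA-KO/PS19 against WT 2 and 2. These are 5.88, 4.41 and 5.88% of the 68, at or below the 5.90, 9.72 and 6.46% of all genes. The medians over the 68 genes were 0.00, -0.02 and 0.03 on the log2 scale. At an unadjusted p under 0.05 there were 15, 15 and 14 of 68 (22.1, 22.1 and 20.6%, against 20.9, 27.8 and 21.7% of all genes).

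Psmb10, a catalytic subunit of the immunoproteasome, which cuts peptides for class I, showed the order of Tap2 and passed the test in both comparisons. PS19 libraries held 17.4 to 21.5 CPM, above the 6.39 to 15.5 of WT and the 9.38 to 17 of CgA-KO/PS19, with a log2 fold change of 0.72 for PS19 minus WT (SE 0.17, FDR = 0.0194 by edgeR) and -0.54 for CgA-KO/PS19 minus PS19 (SE 0.16, FDR = 0.0461 by edgeR). The second call was lost in 14 of the 17 fits that left out 1 library and in 21 of all 33 alternatives, the first in 6. The other catalytic subunits, Psmb8 and Psmb9, did not pass, with differences of 0.37 and 0.64 for PS19 minus WT and 0.05 for both in CgA-KO/PS19 minus PS19.

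Of the other class I chains, 12 were tested. H2-Bl was called higher than WT in PS19 (2.04, FDR = 0.0206 by edgeR) and in CgA-KO/PS19 (1.79, FDR = 0.0397), from 0 to 0.636 CPM in WT to 0.748 to 1.2 and 0.321 to 1.46 CPM, and H2-T24 in CgA-KO/PS19 over WT (0.60, FDR = 0.0232). Of the chaperones of class I folding, Calr (calreticulin) was lower than WT in PS19 (-0.54, FDR = 0.0354 by edgeR) and CgA-KO/PS19 (-0.65, FDR = 0.0139), and Canx (calnexin) was lower than WT in CgA-KO/PS19 (-0.30, FDR = 0.0451). Both chaperones serve glycoproteins in general. The call of Canx was lost in 20 of 33 alternatives, that of Calr in PS19 in 13 of 33 and that of H2-Bl in CgA-KO/PS19 in 17 of 32. Among 10 regulators of class I transcription, Nfya, a subunit of the CCAAT-binding factor NF-Y, was lower in PS19 than in WT (-0.61, FDR = 0.00668 by edgeR). Nlrc5, the class I transactivator, stood at 0.292 ± 0.148 CPM in PS19 and 0.604 ± 0.261 in CgA-KO/PS19 (1.02, FDR = 0.145 by edgeR) and was not called.

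Of the other class II chains, H2-Ab1 and H2-Eb1 were tested and neither was called. H2-Ab1, the beta chain partner of H2-Aa, stood at 0.62 ± 0.445 CPM for WT, 0.88 ± 0.143 for PS19 and 0.586 ± 0.191 for CgA-KO/PS19. Of 14 tested genes for class II loading and its control, only Ctsb, a lysosomal protease, was called, lower in CgA-KO/PS19 than in PS19 (-0.49, FDR = 0.0215 by edgeR). None of 5 costimulatory genes was called in the 3 comparisons by edgeR, and 0 of them had an unadjusted p under 0.05. Of 8 interferon gamma signaling genes only Ptpn2, a phosphatase that restrains JAK and STAT signaling, was called, with a higher level in the knockout (0.49, FDR = 0.024 by edgeR).

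**Figure D5:**
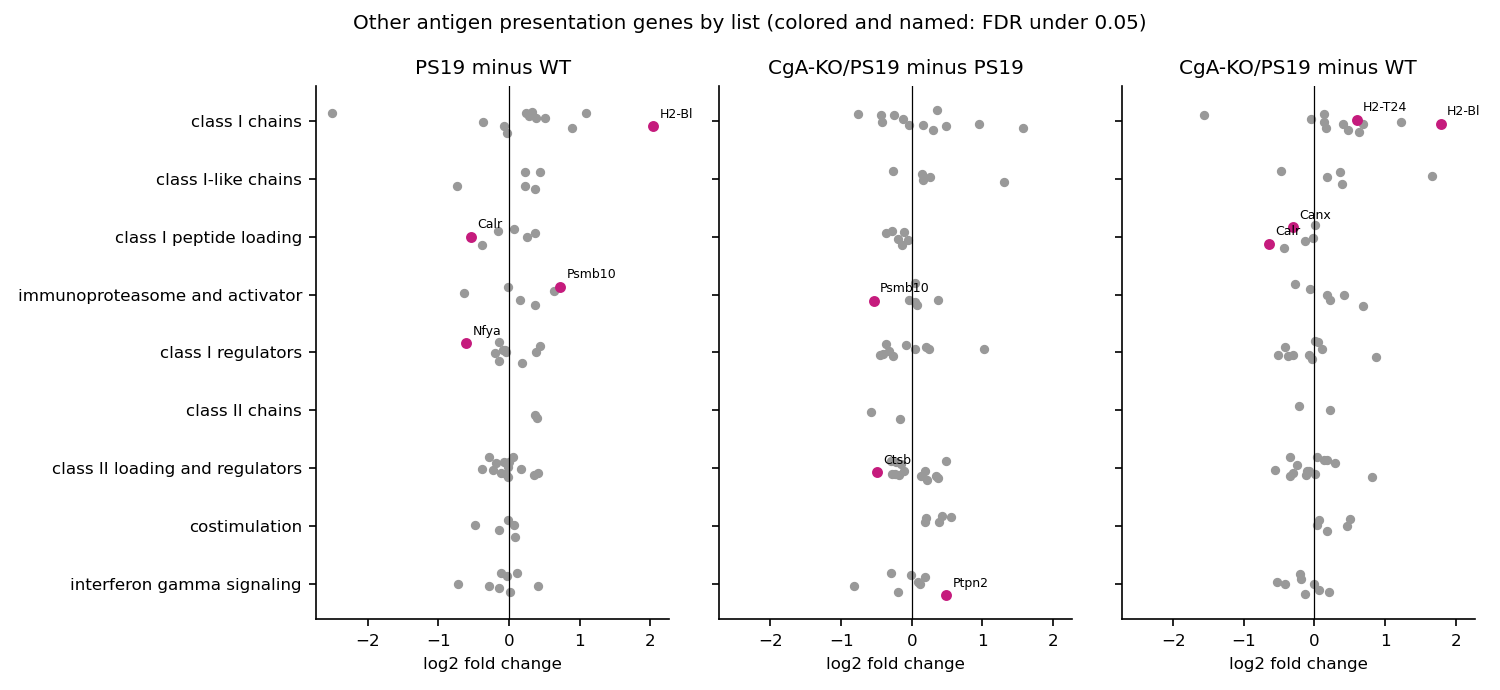
Log2 fold change of the 68 other tested genes of the pathway, by list (rows) and comparison (panels), with genes at an FDR under 0.05 in color and named. Points lie on both sides of 0 in most lists, and 4, 3 and 4 of the 68 genes were called in the 3 comparisons.

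Counted over the H-2 complex (chromosome 17, 33996017 to 37023398, from H2-K1 to Mog, 273 genes of which 132 were tested), 6 genes were called in PS19 against WT (4.55%), 10 in CgA-KO/PS19 against PS19 (7.58%) and 3 in CgA-KO/PS19 against WT (2.27%). The percentages over all genes were given above. Because class I heavy chains are near-identical in parts, reads can be placed on the wrong gene. Of 100-base windows of the spliced transcripts, 3.59% of H2-D1, 3.15% of H2-T23 and 0.957% of H2-K1 were also found in other genes, mostly class I genes. B2m, Cd74 and H2-Aa shared 0% of theirs, and Tap1 1.93% with its neighbor Psmb9.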

How the data were processed

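Paired-end sequencing measured polyadenylated RNA of the prefrontal cortex in 17 mice (WT 5, PS19 6, CgA-KO/PS19 6), grouped by the genotype in the labels. The authors trimmed reads with Trimmomatic 0.39, aligned them to mm10 with STAR 2.7.10b and quantified genes with StringTie 1.3.6, and they deposited whole-number counts per gene without normalization. Conversion from coverage left about 3 counts per fragment, which makes low counts look more precise than they are. The annotation release is not given in the sources used here, and 52029 of 56953 genes matched GENCODE M21 (GRCm38), from which coordinates and exon lengths were taken.

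The deposited counts entered edgeR 4.0.16 (R 4.3.3; TMM, filterByExpr, quasi-likelihood test, all 17 libraries, 1 mean per genotype, no covariate). P-values were adjusted by Benjamini-Hochberg over 23062 genes, and a gene was called at an FDR under 0.05. CPM and RPKM use TMM-scaled library sizes. Confidence intervals are 95% from the fitted spread, and the common biological coefficient of variation was 0.316. Total counts per library were 8838334 to 227651681, and a count of 0 was taken to allow 3 fragments. The 9 genes, the lists, the promoter motifs and the tests were chosen with earlier results of these data known. The text names the 9 genes, called genes of the lists (at most 5 per list), and per gene the 3 tested genes of at least 1 CPM with the highest Pearson r of log2(CPM + 1). Other genes of the lists named beside these (Psmb8, Psmb9, Nlrc5, H2-Ab1, H2-Eb1) were chosen after their values were seen. Alternatives were DESeq2 1.42.0, limma 3.58.1 voom with sample quality weights, other size factors, filters and count scale, only the 2 genotypes compared, covariates, a replicate block, summed libraries and each library left out. Chosen after seeing the data were a covariate for the offset between short and long genes, libraries with or without Ddx3y alone, and fits without the 2 shallowest libraries. The edgeR, DESeq2 and weighted voom tests were run on simulated counts. These had larger changes than the 9 genes, the same spread for all genes and no outlying library. They therefore do not show how well differences of the size described here are found.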

Additional observations from a re-analysis of the deposited data

Results flagged for a closer look

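In 27 sets of libraries (9 genes in 3 genotypes), 3 had 1 library far from the others, all of them WT replicate 4, the shallowest library. There B2m stood at 128 CPM, a gap to the next library of 0.722 of the WT range, H2-D1 at 7.98 CPM (0.841) and Tap2 at 2.51 CPM (0.742). Chance alone flags about 1 set in 20. The 3 values come from 1 library and are not independent. Without it the WT means were 69.2 ± 9.44 CPM for B2m, 26 ± 1.36 for H2-D1 and 5.41 ± 0.361 for Tap2 (SD, n = 4). The cause was not tested.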

How the results depend on the processing

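Of 27 log2 fold changes (9 genes in 3 comparisons), 15 kept their sign in every alternative run. The number of the 9 genes called, 0 in each comparison as reported, moved as follows. In brackets is the share of all tested genes called in the same fit. For PS19 against WT it was 1 with DESeq2 (9.81%), voom with sample quality weights (17.2%; Tap2 in both), the striatum covariate (B2m, 17.6%) and libraries without Ddx3y (H2-T23, 5.81%). It was 0 with any 1 library left out (2.79 to 7.21%). For CgA-KO/PS19 against PS19 it was 2 with DESeq2 (15.2%), weighted voom (22.7%) and only the 2 genotypes compared (13.1%), 1 with the striatum covariate (B2m, 6.32%) and the microglia covariate (H2-T23, 17.7%), 3 with libraries with Ddx3y alone (31.1%) and without the 2 shallowest libraries (14.5%), and 0 to 3 with 1 library left out (15.0% where it was 3). For CgA-KO/PS19 against WT it was 1 with libraries with Ddx3y alone (H2-T23, 20.7%) and without the 2 shallowest (H2-K1, 6.64%), and 0 to 1 with 1 library left out (5.03% where it was 1). The signs that turned were as follows. For PS19 minus WT, B2m was -0.72 with the striatum covariate and -0.08 in libraries without Ddx3y, Tap1 -0.05 with the length offset and -0.01 with Ddx3y libraries, Tapbp 0.06 with voom, 0.02 with the replicate block, 0.07 with Ddx3y libraries and 0.12 without the 2 shallowest, and H2-Aa -0.12 without the 2 shallowest. For CgA-KO/PS19 minus PS19, Tap1 was -0.14 with the striatum covariate, -0.19 with the length offset and -0.28 in libraries without Ddx3y. For CgA-KO/PS19 minus WT, B2m was -0.04 and H2-Aa 0.35 with the striatum covariate, H2-T23 0.76 in libraries without Ddx3y, Tap1 -0.24 with the length offset, Cd74 -0.02 with the Ddx3y covariate, and H2-D1 -0.02 with no filter. With voom, H2-D1 was -0.22, Tap2 -0.06 and Cd74 -0.08. With Ddx3y libraries H2-D1 was -0.42, Tap2 -0.15 and H2-Aa 0.08, and without the 2 shallowest H2-D1 was -0.17, Tap2 -0.09 and Cd74 -0.2. With 1 library left out, the ranges that crossed 0 were -0.01 to 0.32 for B2m and -0.13 to 0.08 for Tapbp (PS19 minus WT), -0.07 to 0.18 for Tap1 (CgA-KO/PS19 minus PS19), and -0.2 to 0.12 for H2-D1, -0.09 to 0.13 for Tap2, -0.09 to 0.3 for Cd74 and -0.25 to 0.3 for H2-Aa (CgA-KO/PS19 minus WT). The causes were not tested. Replicate numbers did not pair the libraries (r of same-numbered deviations -0.232 to 0.437), and with a replicate block 0, 0 and 0 of the 9 genes were called, and 660, 654 and 614 of all genes. A minimum of 10 counts in every library left 6 of the 9 genes tested. Each of the 11 calls among the other pathway genes was lost in 1 to 21 alternatives. Depth limits H2-Aa, Tap1 and Cd74 most in WT replicate 4, where the last 2 had 9 counts each.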

Other observations

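H2-Ea, a class II gene that C57BL/6 and C3H mice differ in, had 0 counts in the 5 WT libraries. It had 32, 5 and 11 counts in PS19 replicates 3, 5 and 6 and 6 counts in CgA-KO/PS19 replicate 4, at most 0.174 CPM, and 0 in the others. About 3 deposited counts stand for 1 fragment, so the counts of 5 and 6 rest on about 2 fragments each.

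The share of the heavy chains was read within each library, as a measure chosen after their values were seen and therefore given without a test. The ratio of H2-K1 to H2-D1 counts was 0.167 to 0.417 in PS19 libraries, 0.33 to 0.745 in CgA-KO/PS19 libraries and 0.247 to 0.9 in WT, with the highest in replicate 4. The ratio of B2m to the summed counts of H2-D1, H2-K1 and H2-T23 was 1.13 to 2.11 in PS19 libraries, 1.53 to 4.9 in CgA-KO/PS19 libraries and 1.25 to 5.99 in WT libraries, again highest in replicate 4.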
